A study of Homo sapiens with 3 samples.

Results

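Keratins are the intermediate filament proteins of epithelial cells. A filament is built from pairs of 1 acidic type I chain and 1 basic or neutral type II chain, so a cell needs chains of both types, and which pair it makes is a classical marker of the kind of epithelium it belongs to. KRT8 with KRT18, and KRT7 with KRT19, are typical of simple epithelia such as the lining of the airways and of adenocarcinomas, whereas KRT5 with KRT14 marks the basal layer of stratified epithelia and squamous carcinomas. The genes examined here were all protein-coding keratin genes with a row in the count file, chosen by symbol (KRT, a number and at most the letter A, B or C), a rule that uses no counts. There were 55 of them among 60880 gene rows, 29 of type I and 26 of type II.

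The values come from 1 RNA-seq library, replicate 2 of wild-type NCI-H1975 cells, an established human lung adenocarcinoma cell line that had not been made resistant to anlotinib, an inhibitor of several receptor tyrosine kinases. The study compared such cells with anlotinib-resistant cells, and also profiled resistant cells in which the transcription factor gene TFAP2A was knocked down; those states and the 2 wild-type ATAC-seq samples were not analysed here. No contrast, test or replicate check was therefore possible, and intervals are 95% intervals for counting error only. The library held 25012733 counts, 1 count equalled 0.04 CPM (counts per 1000000 counts of the library), and for a count of 0 a fixed upper limit of 3 counts, or 0.12 CPM, is given. The exact interval of a count of 0, which covers 95% from both sides, ends slightly higher, at 0.1475 CPM (for example for KRT1). Gene lengths were not used, so an order of genes below is an order of read numbers, not of molecules. All 5 genes listed as markers for this line, such as NKX2-1 of lung and EPCAM of epithelia in general, had at least 595 counts. None of 8 listed leukocyte, fibroblast and endothelial markers with a row exceeded 2 counts.

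A small set of simple-epithelium chains carried nearly all keratin reads. The 55 genes held 293926 counts, or 1.18% of the library (1.17 to 1.18). KRT7, KRT8, KRT19 and KRT18 together held 279784 of these, or 95.2% (95.1 to 95.3). With KRT80 added, 5 genes held 99.0% (98.96 to 99.03), and the other 50 shared 2962 counts. A gene was called detected from 10 counts upward. Only 13 of the 55 genes, 23.6%, passed this minimum, against 69.7% of the 19056 protein-coding rows. A further 9 had 1 to 9 counts, 33 counts in all, so that 22 of 55 had any read, against 78.8% of protein-coding rows, and 33 were at 0. The median count over all 55 keratin genes was 0, against 246 over all protein-coding rows. Detection was similar in both types, with 7 of 29 type I and 6 of 26 type II genes.

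**Figure D1:**
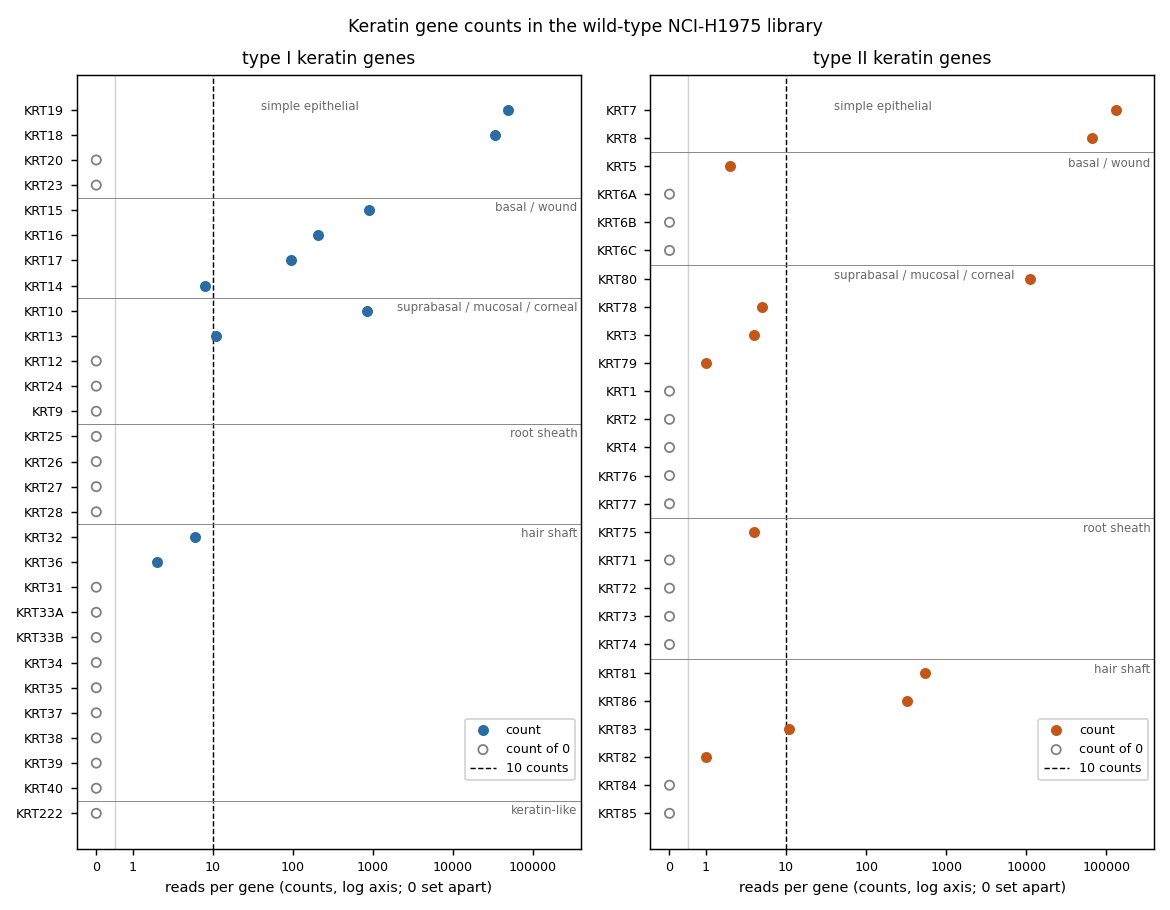
Read count of each of the 55 keratin genes in the wild-type library, type I on the left and type II on the right, grouped by the epithelium they are known for. The horizontal axis is logarithmic with counts of 0 set apart as open circles, and the dashed line marks 10 counts. KRT7, KRT8, KRT19 and KRT18 lie between 33318 and 132533 counts, KRT80 follows at 11180, and 33 genes are at 0.

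KRT7, the type II keratin of glandular and ductal epithelia, had 132533 counts (identifier ENSG00000135480.15_3), or 5299 CPM (5270 to 5327). It alone held 45.1% of keratin reads (44.9 to 45.3) and ranked 5 among all protein-coding rows by count. KRT8 (ENSG00000170421.12_4), the type II chain of most simple epithelia, had 65584 counts, or 2622 CPM (2602 to 2642), and ranked 13. KRT7 thus had 2.02 times (2.002 to 2.04) the reads of KRT8, the other type II chain of simple epithelia.

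On the type I side the reads were divided more evenly. KRT19 (ENSG00000171345.13_2), a small keratin that lacks the usual tail domain, had 48349 counts, or 1933 CPM (1916 to 1950), and ranked 21. KRT18 (ENSG00000111057.10_5), the usual partner of KRT8 and a substrate of caspases in dying cells, had 33318 counts, or 1332 CPM (1318 to 1346), and ranked 41. The ratio of KRT19 to KRT18 counts was 1.45 (1.43 to 1.47). The remaining simple-epithelium type I genes on the list, KRT20 of gut and urothelium and KRT23, were both at 0. Thus 4 of the 6 genes of this group were detected, a share near the 69.7% of all protein-coding rows.

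Type II reads outnumbered type I reads, although the proteins polymerise in equal numbers. The 26 type II genes held 210188 counts and the 29 type I genes 83738, a ratio of 2.51 (2.49 to 2.53). Leaving out KRT7 alone, with its usual partner KRT19 kept, gave a ratio of 0.927. Within the usual partners, the ratio of KRT8 to KRT18 was 1.97 (1.94 to 1.995) and that of KRT7 to KRT19 was 2.74 (2.71 to 2.77). These are ratios of reads, to which transcript length contributes, and the protein was not measured.

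KRT80, a type II keratin found near desmosomes in differentiating epithelial cells, came next, far above the remaining keratin genes. It had 11180 counts (ENSG00000167767.13_3), or 447 CPM (439 to 455), which was 3.8% of keratin reads and more than 98.1% of detected protein-coding rows. Its count was 0.336 times (0.328 to 0.343) that of KRT18. It was 12.6 times (11.8 to 13.5) that of KRT15, the next keratin gene, so a wide gap separated the 5 leading genes from the rest.

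The other 8 detected genes ranged from 11 to 886 counts. KRT15, a type I keratin of basal cells, had 886 counts, or 35.4 CPM (33.1 to 37.8). KRT10, a type I keratin of the upper epidermis, had 855 counts, or 34.2 CPM (31.9 to 36.5). Their read numbers, at a ratio of 1.04 (0.942 to 1.14), did not differ from equality beyond counting error. In bulk RNA, few cells with many transcripts and many cells with few cannot be told apart for genes at such levels. KRT16 and KRT17, type I keratins induced at wound edges and in many carcinomas, had 207 and 96 counts, or 8.28 CPM (7.19 to 9.48) and 3.84 CPM (3.11 to 4.69). KRT13, a mucosal type I keratin, had 11 counts, or 0.44 CPM, just above the minimum, and KRT14 had 8, just below it.

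Among hair shaft keratins the reads were almost all in type II genes. KRT81 and KRT86, which form the cortex of the hair, had 543 and 320 counts, or 21.7 CPM (19.9 to 23.6) and 12.8 CPM (11.4 to 14.3). KRT83 had 11 counts, KRT82 had 1, and KRT84 and KRT85 were at 0. Of the 11 type I hair shaft genes none was detected, with 6 counts for KRT32, 2 for KRT36 and 0 for the other 9 (KRT31, KRT33A, KRT33B, KRT34, KRT35, KRT37, KRT38, KRT39 and KRT40). None of the 94 genes for keratin-associated proteins (KRTAP), which cross-link hair keratins in the shaft, reached 10 counts, and 89 of them were at 0. Their highest counts were 6 for KRTAP5-9 and 3 each for KRTAP5-7 and KRTAP5-10. KRT81 and KRT86 are similar in sequence, and the KRT86 gene model in RefSeq contains KRT81, so the division of reads between them, a ratio of 1.70 (1.48 to 1.95), is uncertain.

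Some detected chains outside the simple-epithelium group lacked reads of their usual partner. The pairs examined did not include the detected genes KRT80, KRT15, KRT81, KRT86 and KRT83. Of 9 textbook pairs, which were listed after the counts were known, both members were detected in 2, KRT8 with KRT18 and KRT7 with KRT19. In 4 pairs the type I gene was detected and the type II gene was at 0: KRT16 without KRT6A, KRT17 without KRT6B, KRT10 without KRT1, and KRT13 without KRT4. In the other 3 pairs neither was detected. KRT5 and KRT14, the basal pair, had 2 and 8 counts. KRT3 and KRT12 of the cornea had 4 and 0, and KRT85 and KRT35 of the hair shaft were both at 0. Among the basal and wound-associated genes, 3 of 4 type I genes were detected, a share near the 69.7% of all protein-coding rows. This type I group held 1197 counts, of which KRT15 alone gave 886. None of the 4 type II genes was detected, with 2 counts in the group and KRT6C at 0 as well. KRT6A, KRT6B and KRT6C are near-identical, and reads they share could have been dropped or split in counting, so their zeros are uncertain.

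**Figure D2:**
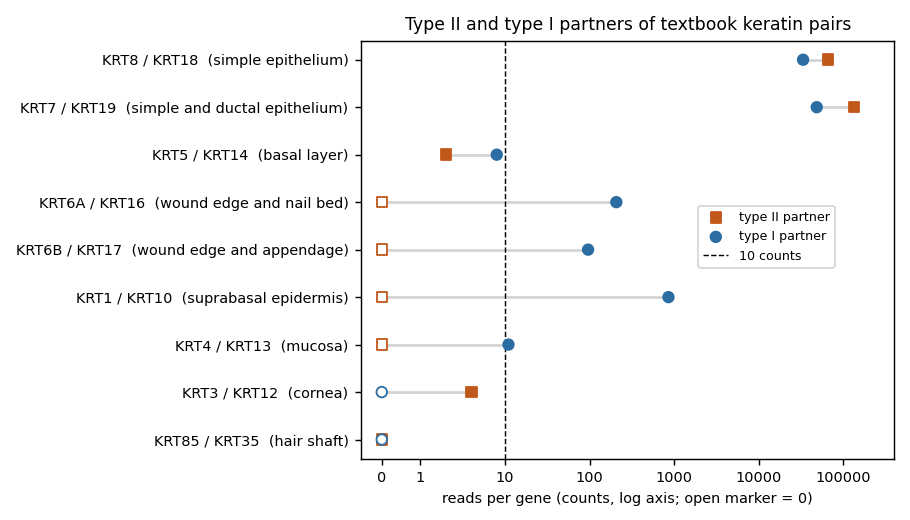
Read counts of the type II (orange squares) and type I (blue circles) members of 9 textbook keratin pairs, on a logarithmic axis with counts of 0 as open markers and a dashed line at 10 counts. Only KRT8 with KRT18 and KRT7 with KRT19 have both members above 10 counts, while KRT16, KRT17, KRT10 and KRT13 lie above the line with a type II partner at 0.

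The remaining keratin genes had few or no reads. Of the 14 suprabasal, mucosal and corneal genes, 3 were detected, namely KRT80, KRT10 and KRT13. KRT78 had 5 counts and KRT79 had 1, and KRT1, KRT2, KRT9, KRT24, KRT76 and KRT77 were at 0 along with KRT4 and KRT12. Of the 9 root sheath genes of the hair follicle, KRT75 had 4 counts, and KRT25, KRT26, KRT27, KRT28, KRT71, KRT72, KRT73 and KRT74 were at 0. The keratin-like gene KRT222 was also at 0. By the fixed limit of 3 counts, each of these zeros allows up to 0.12 CPM.

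In genome order, taken from RefSeq (GRCh38.p14) for neighbourhood only, the detected keratin genes were not scattered evenly. Human keratin genes lie in 2 clusters, the type II genes on chromosome 12 and the type I genes on chromosome 17, with KRT18 as the only type I gene in the type II cluster, beside KRT8. On chromosome 12, the 7 detected genes of 27 stood at the cluster's 2 ends. At one end KRT80, KRT7, KRT86, KRT81 and KRT83 followed each other with 144587 counts. Of these, 132533 came from KRT7 and only 11 from KRT83, just above the minimum. At the other end were KRT8 and KRT18, with 98902 counts. The 20 genes between them, from KRT85 to KRT78, held 17 counts in all, none above 5, with 14 at 0. The nearest protein-coding neighbour beyond KRT18 was EIF4B, a translation initiation factor, with 12585 counts, and the one beyond KRT80 was SMIM41, with 1 count.

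On chromosome 17, 6 of 28 keratin genes were detected. KRT13, KRT15 and KRT19 were neighbours with 49246 counts, nearly all from KRT19. KRT16 and KRT17 at the cluster's end had 303 counts and were separated from them by KRT9, at 0, and KRT14. KRT10 stood alone, with 6 genes at 0 on one side, from KRT222 to KRT28, and on the other 14 genes from KRT12 to KRT36 with 8 counts in all. The cluster also contains 34 KRTAP genes.

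**Figure D3:**
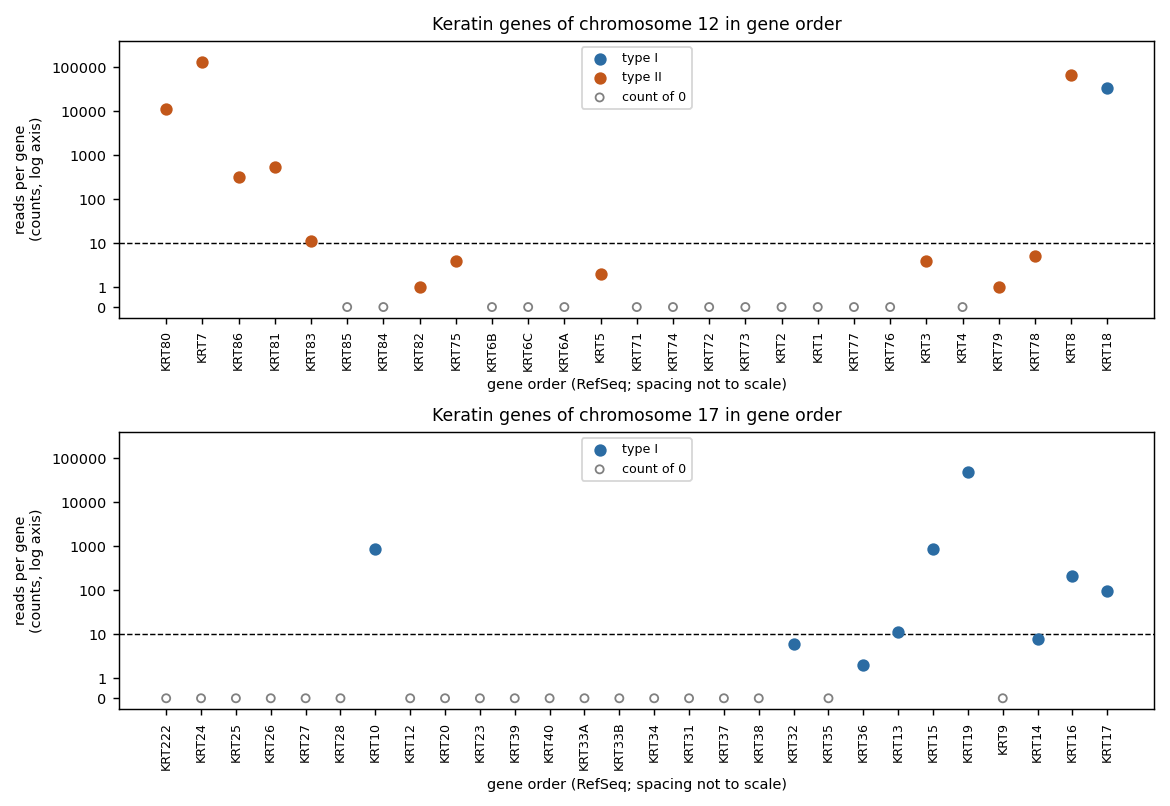
Read counts of the keratin genes of chromosome 12 (top) and chromosome 17 (bottom) in their order along the chromosome, on a logarithmic axis with counts of 0 as open circles and a dashed line at 10 counts. Detected genes stand at the 2 ends of the chromosome 12 cluster, with 20 genes at 5 counts or fewer between them, and on chromosome 17 mostly at the end that holds KRT19.

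The start regions of the keratin genes are described because many of them share a short sequence that did not enter the choice of genes. RefSeq windows of 300 bases (250 before to 50 after the start, GRCh38.p14) were matched for 34 of the 55 genes. The letters TATAAA, the core of the TATA box, occurred on either strand in 20 of these 34 windows, 58.8%, against 9.57% of 15238 protein-coding windows. On the gene's own strand, beginning 40 to 20 bases before the start, they occurred in 15 of 34, 44.1%, against 3.66% of all, and in these 15 they began 27 to 31 bases before it. By type, 12 of 20 type I and 3 of 14 type II windows had them there. Of the 32 windows of undetected genes, 14 had them there. The undetected genes printed below are examples and hold them more often than that. The 80 bases before the start of 7 genes follow, 5′ to 3′ on the gene's strand (minus in each case), with TATAAA in capitals: the 2 detected genes with a window, and 1 or 2 undetected genes each from the root sheath, hair shaft, corneal and basal groups.
KRT8 (chr12:52926470-52926549, 65584 counts): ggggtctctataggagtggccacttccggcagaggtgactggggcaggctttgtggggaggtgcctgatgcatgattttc
KRT10 (chr17:40822615-40822694, 855 counts): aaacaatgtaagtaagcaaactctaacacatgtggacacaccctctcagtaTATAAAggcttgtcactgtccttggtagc
KRT25 (chr17:40755332-40755411, 0 counts): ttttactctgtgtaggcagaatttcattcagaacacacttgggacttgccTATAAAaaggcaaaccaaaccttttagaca
KRT31 (chr17:41397609-41397688, 0 counts): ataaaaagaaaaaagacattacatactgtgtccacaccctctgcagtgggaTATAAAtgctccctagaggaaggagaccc
KRT71 (chr12:52553146-52553225, 0 counts): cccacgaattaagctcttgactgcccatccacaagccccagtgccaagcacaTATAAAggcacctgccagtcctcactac
KRT3 (chr12:52796118-52796197, 4 counts): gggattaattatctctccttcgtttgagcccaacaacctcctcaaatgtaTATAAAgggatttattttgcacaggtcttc
KRT5 (chr12:52520395-52520474, 2 counts): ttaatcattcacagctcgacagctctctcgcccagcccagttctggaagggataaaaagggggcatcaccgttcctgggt

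TATAAA lay at nearly the same distance from the start in KRT10, with 855 counts, and in KRT25, KRT31 and KRT71, with none, at 29, 30, 29 and 28 bases. On the gene's strand, the windows of KRT8 and KRT5 did not contain these letters. Only the exact letters were searched. Near matches, such as ataaaa in the printed KRT5 sequence, were not counted in any window. The KRT8 window lies at one of that gene's RefSeq starts, and the gene model extends further upstream. Counts are per gene, so which start gave the KRT8 reads is not known, and windows at other starts were not examined. Keratin windows were also poor in CpG dinucleotides, with a median of 2 and a range of 0 to 8, against a median of 22 over all windows, and their median GC content was 45.7% against 63%. The letters GCCNNNGGC, a motif bound by AP-2 factors such as TFAP2A, occurred in 5 keratin windows, KRT4, KRT9, KRT73, KRT74 and KRT75, 14.7% against 28.5% of all. The GC box core GGGCGG occurred in 6, 17.6% against 59.3%, on either strand and never overlapping the former in keratin windows. Only 2 of the 34 genes with a window were detected, so windows of detected and undetected genes were not compared. The other detected genes, KRT7, KRT19, KRT18 and KRT80 among them, had no matched window. The shares above therefore describe mostly undetected genes, and motifs at the starts of those other detected genes are not known.

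Keratin genes have many pseudogene copies, and rows of these and of antisense genes show where similar reads could have been placed. Of 150 keratin pseudogene rows, 67 had reads and 14 had at least 10, with 1355 counts in total. The 51 KRT8 pseudogenes held 723 counts, 1.1% of the KRT8 count, led by KRT8P12 with 336 and KRT8P3 with 157, with 53, 30 and 27 for KRT8P33, KRT8P39 and KRT8P46. The hair keratin pseudogenes KRT87P and KRT89P, in the type II cluster, had 42 and 21 counts. The 67 KRT18 pseudogenes held 102 counts, 0.306% of the KRT18 count. KRT16 differed from these: its pseudogene KRT16P2 had 423 counts, 2.04 times (1.73 to 2.43) the 207 of KRT16 itself. How reads with more than 1 matching place were counted is not stated in the sources used here, so the low counts of KRT16, KRT17 and KRT14, which resemble each other and these copies, are uncertain.

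Antisense rows bear on 2 detected genes. KRT7-AS, an RNA annotated across part of KRT7, had 4635 counts, 3.5% of the KRT7 count. KRT10-AS1 had 215 counts, 25.1% of the KRT10 count. The library kit keeps strand, but whether the counting used it is not stated, so reads of a gene and its antisense partner cannot be told apart. The RefSeq models of KRT8 and KRT18 also overlap, and how reads in that overlap were counted is not stated.

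The genes that anchor keratin filaments to cell junctions were detected almost without exception. Of 14 anchors at desmosomes (cell-cell junctions) and hemidesmosomes (cell-matrix junctions), 13 were detected, against 69.7% of protein-coding rows, and the median level was 242 CPM, against 9.84 CPM over those rows. Plectin (PLEC), which links keratin filaments to hemidesmosomes, had 55890 counts, or 2234 CPM (2216 to 2253). ITGB4, the hemidesmosomal integrin that plectin binds, had 12159 counts, and desmoplakin (DSP), the desmosomal anchor of keratins, had 12105. PKP1, the plakophilin of stratified epithelia, had 1 count.

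Proteins that bind keratins or act in their turnover were all detected, 14 of 14, against 69.7% of protein-coding rows. Their median was 157 CPM, against 9.84 CPM over those rows. HSPB1, a small heat shock protein that associates with keratin filaments, had 38378 counts, or 1534 CPM (1519 to 1550). SQSTM1, a component of keratin-containing inclusion bodies, had 22111 counts, and the 14-3-3 protein gene YWHAZ had 15489.

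Among 17 genes of other intermediate filament classes, 13 passed the minimum, a share near the 69.7% of all protein-coding rows, and their median over all 17 was 11.7 CPM. Vimentin (VIM), the filament protein of mesenchymal cells, had 57711 counts, between KRT8 and KRT19, and the 55 keratin genes together had 5.09 times (5.05 to 5.14) its reads. The nuclear lamins LMNA and LMNB2 had 40755 and 13511 counts. The neurofilament genes NEFL and NEFM were at 0, as was the lens filament gene BFSP2.

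Genes of the cornified layer, which accompany keratin expression in the upper epidermis, were low throughout. The minimum was passed by 7 of 19, against 69.7% of protein-coding rows, and the median over all 19 was 0.2 CPM, against 9.84 CPM over those rows. Involucrin (IVL) had the most reads, 186, or 7.44 CPM (6.41 to 8.59). The transglutaminase genes TGM5 and TGM1 had 171 and 74. Loricrin (LORICRIN) and DSG1 were among the 7 at 0, as was DSG3, a desmosomal gene of the lower layers that was also on the list.

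**Figure D4:**
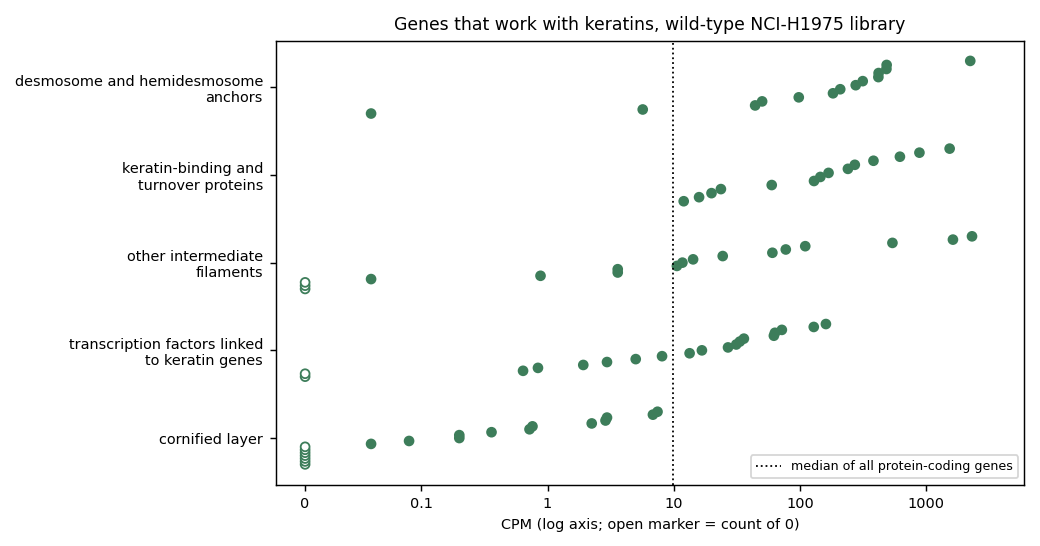
Level of each gene in 5 lists related to keratins, in CPM on a logarithmic axis, with counts of 0 as open markers and the dotted line at the median of all protein-coding rows, 9.84 CPM. All but 2 junction anchors and all binding and turnover genes lie above the line, whereas all 19 genes of the cornified layer list lie below it.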

How the data were processed

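The values are raw whole-number read counts per gene as the authors deposited them, in 1 file without a header, not normalised. Per the submitters' processing notes, the tools were deepTools (3.3.0), MACS2 (2.1.1.20160309), Bowtie2 (2.3.3.1), featureCounts and STAR, with hg19 as the build and no roles named. Per the labels' protocols, Trizol RNA went into a directional NEBNext library. Not given in the sources used here are the strand setting, the release of the annotation and the rule for reads with several matching places.

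Identifiers were matched without version to a symbol table (56373 of 60880 rows, 99.8% of counts), and gene type, order and overlaps came from RefSeq (GRCh38.p14). No coordinates of hg19 were used. Counts were divided by the library total to give CPM. Levels have exact Poisson (Garwood) intervals, shares exact Clopper-Pearson intervals and ratios conditional intervals, at 95%. Reads are not independent molecules. The keratin genes, lists and detection minimum of 10 counts were chosen with earlier results of these data known. Named were all detected keratins, those at 1 to 9 or 0 counts, the 3 highest and up to 3 undetected members of each other list, and the 10 highest pseudogene or antisense rows. A count of 0 is given a fixed upper limit of 3 counts beside its interval. The ratio per coding kilobase was not computed, because no coding lengths were used. The intervals were tried on counts simulated with Poisson error, which they assume. There, 95.2% of level intervals (17925 genes) and 95.5% of ratio intervals (2000 pairs) held the true value. This checks their computation only, not the error of real reads. Computation used SciPy 1.17.1, pandas 2.3.3 and NumPy 2.4.6 under Python 3.11.15, with figures from Matplotlib 3.10.9.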

Additional observations from a re-analysis of the deposited data

How the results depend on the processing

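The 13 detected keratin genes became 22 at a minimum of 1 count, where the percentage of protein-coding rows was 78.8%. They became 11 at 50 counts, at 1 CPM and after thinning to 50%, and stayed 13 with pseudogene counts added to their parents. The share of keratin reads was 1.24% without mitochondrial genes in the total, 1.28% of protein-coding counts and 1.2% with pseudogene and antisense rows added. The ratio of type II to type I reads was 0.927 without KRT7 but with KRT19 kept, and 2.56 with antisense rows added. KRT7 to KRT8 was 1.999 with pseudogenes added and 2.09 with KRT7-AS added, and KRT7 to KRT19 was 2.84 with KRT7-AS added. Keratin to VIM reads were 4.85 over simple-epithelium genes alone. The other 5 alternative ratios stayed inside the counting intervals. Adding antisense rows, adding pseudogenes to detection and thinning a ratio were chosen after seeing the data. Alternatives per coding kilobase were not run, for want of coding lengths. No paired analysis was possible because the values come from a single library. At this depth a count of 0 allows up to 0.12 CPM by the fixed limit of 3 counts.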

Other observations

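Transcription factors with a known part in keratin gene expression were read last. Of 19 listed, 17 were detected, against 69.7% of protein-coding rows, with a median of 16.7 CPM against 9.84 CPM over all protein-coding rows. ELF3, an epithelial ETS factor, led with 4014 counts, or 160 CPM (156 to 166), followed by SP1 with 3216 and TFAP2A with 1797. FOXN1 and LEF1, both active in the hair follicle, were at 0. HOXC13, a regulator of hair shaft keratins, had 74 counts, or 2.96 CPM (2.32 to 3.71), and TP63, the factor of basal epithelial cells, had 418, or 16.7 CPM (15.1 to 18.4). These last 2 were picked after their counts were seen. The link of any of these factors to a keratin gene was not tested.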
